A study of Mus musculus with 36 samples.

Results

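The constitutive proteasome subunit genes are the genes that encode the standard parts of the proteasome, the protease complex that degrades proteins tagged with ubiquitin. Their levels were measured in 3 brain regions of mice given the wake-promoting drug modafinil or vehicle. The members were the genes named Psma, Psmb, Psmc or Psmd with a number, leaving out Psmb8, Psmb9 and Psmb10, which encode the inducible catalytic subunits. This gave 36 genes of the 18193 that had a probe set with a single gene symbol. They were covered by 74 such probe sets. Where a gene had several, the brightest on average over the 36 arrays stood for it. The values are log2 expression values, so a difference of 1 is a 2-fold difference.

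All arrays came from male C57B1/6J mice in a conditioned place preference experiment, in which a drug is paired with one compartment of a box and the preference for that compartment is then tested. Mice received modafinil at 65 mg/kg or saline as the vehicle on the drug days between days 3 and 10, and were killed on day 11, directly after the preference test and 24 hours after the last dose. The ventral tegmental area (VTA, where midbrain dopamine neurons lie) and the nucleus accumbens (NAC, a ventral striatal region that those neurons innervate) were measured in 5 vehicle and 5 modafinil arrays each, and the prefrontal cortex (PFC) in 8 and 8. Tissue was punched at 1 mm from 100 µm slices. For VTA and NAC the RNA from both pieces of a brain sample was pooled where its quality allowed, a step that the PFC protocol does not name. The labels do not say which arrays came from separate mice, so p-values measure the spread between these samples, which may be partly technical. All mice went through the conditioning, and the modafinil arrays differ from the vehicle arrays in the drug.

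The proteasome core, the 20S particle, is a barrel of alpha rings, which gate its entrance, around beta rings, which hold the proteolytic sites. Psmb6, Psmb7 and Psmb5 encode the subunits with caspase-like, trypsin-like and chymotrypsin-like activity. The 19S cap binds ubiquitin chains, removes them and unfolds the substrate with a ring of ATPases (Psmc1 to Psmc6) before it enters the barrel. Dedicated chaperones, among them those encoded by Psmd5, Psmd9 and Psmd10, help to assemble the base of the cap. In neurons the complex takes part in protein turnover at synapses. The 36 members were 8 alpha ring genes, 8 beta ring genes, 6 ATPases, 11 non-ATPase subunits of the cap and 3 of these chaperones.

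Psma8, an alpha subunit known from testis, and Psmb11, a beta subunit known from the thymus, were near the dim end of the array. Psma8 lay at 4.97 ± 0.10 (SD, n = 5) in vehicle VTA, 4.63 ± 0.16 (n = 5) in vehicle NAC and 5.16 ± 0.22 (n = 8) in vehicle PFC. Psmb11 lay at 4.40 ± 0.14, 4.70 ± 0.10 and 5.31 ± 0.21 in the same groups. Neither passed the filter on low values, which kept probe sets whose mean was at or above the 40th percentile, and neither was tested. The other 34 members passed it in every comparison.

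Many members differed between regions, each tested on its own, as given below. The stretches upstream of a few members are shown first, and their part in the regional differences was not tested. Upstream sequences of proteasome genes are known to hold antioxidant response elements, which are bound by Nfe2l1 and Nfe2l2. Nfe2l1 is the factor that raises proteasome genes when proteasome activity falls. RefSeq promoter windows of build GRCm38.p6, from 250 bases before to 50 after the annotated start, matched 29 of the 36 members by symbol, in 31 windows. Psmb1, Psmb2, Psmb7, Psmc3, Psma8, Psmd3 and Psmd7 had no entry there. The 250 bases before the start, 5′ to 3′ on the gene's strand, are given for Psmb5 and Psmb6 as catalytic subunits, and for Psmc5, Psmd12, Psmc1 and Psmc6, which had the largest regional differences among members with an entry. This choice holds a larger share of windows with the motif than the members as a whole. Capitals mark matches on either strand to the core of the antioxidant response element, TGACNNNGC, and in Psmc1 to CCAAT. The windows are chr14:54617996-54618245 on the minus strand for Psmb5, chr11:70525107-70525356 on the plus strand for Psmb6, chr14:45329574-45329823 on the plus strand for Psmc6, chr11:107479278-107479527 on the plus strand for Psmd12 chr11:106255935-106256184 on the plus strand for Psmc5 and chr12:100109952-100110201 on the plus strand for Psmc1. All lie upstream of the annotated transcript.
Psmb5: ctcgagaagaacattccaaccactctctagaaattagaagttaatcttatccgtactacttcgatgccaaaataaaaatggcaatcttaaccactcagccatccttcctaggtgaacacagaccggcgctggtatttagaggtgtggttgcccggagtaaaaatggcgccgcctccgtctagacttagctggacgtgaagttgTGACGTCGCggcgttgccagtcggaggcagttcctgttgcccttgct
Psmb6: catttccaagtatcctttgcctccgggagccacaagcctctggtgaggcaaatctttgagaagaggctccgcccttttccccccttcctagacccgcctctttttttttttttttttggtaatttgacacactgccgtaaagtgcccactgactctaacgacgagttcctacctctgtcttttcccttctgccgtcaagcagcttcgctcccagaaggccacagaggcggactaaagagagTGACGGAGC
Psmc6: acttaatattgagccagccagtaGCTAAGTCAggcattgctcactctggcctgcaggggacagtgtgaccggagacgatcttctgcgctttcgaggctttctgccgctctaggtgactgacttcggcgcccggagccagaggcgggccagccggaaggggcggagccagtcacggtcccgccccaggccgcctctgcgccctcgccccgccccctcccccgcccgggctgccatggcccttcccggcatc
Psmd12: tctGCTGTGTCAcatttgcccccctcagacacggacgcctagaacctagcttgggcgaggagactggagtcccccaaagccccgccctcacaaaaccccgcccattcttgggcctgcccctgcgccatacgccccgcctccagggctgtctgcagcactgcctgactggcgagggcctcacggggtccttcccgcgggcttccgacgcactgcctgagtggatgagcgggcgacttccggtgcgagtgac
Psmc5: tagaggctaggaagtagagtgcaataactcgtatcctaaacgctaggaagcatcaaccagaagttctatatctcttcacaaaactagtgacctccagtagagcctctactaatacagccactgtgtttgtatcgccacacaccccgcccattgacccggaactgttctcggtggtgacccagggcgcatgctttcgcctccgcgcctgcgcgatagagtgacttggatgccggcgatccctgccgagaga
Psmc1: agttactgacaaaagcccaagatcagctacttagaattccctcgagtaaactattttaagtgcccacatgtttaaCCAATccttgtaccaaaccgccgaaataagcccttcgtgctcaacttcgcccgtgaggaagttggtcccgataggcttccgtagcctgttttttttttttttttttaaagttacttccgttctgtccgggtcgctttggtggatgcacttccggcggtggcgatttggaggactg

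The match begins at position -47 in Psmb5 and at -9 in Psmb6, counted back from the start. In Psmc6 it begins at -227 and in Psmd12 at -247, both on the opposite strand, and the Psmc5 and Psmc1 windows have none. Psmc1 has a CCAAT at -175. Over the 31 member windows, 5 held this motif (Psmb5, Psmb6, Psmc6, Psmd12 and Psmd9), which is 16.1%, against 12.4% of all 32851 windows in the table. CCAAT, the core bound by the factor NF-Y, was in 12 member windows, 38.7% against 37.4% of all windows. TTCNNNGAA, the core of the elements that STAT factors bind, was in 1 member window, that of Psmd2, 3.23% against 8.30% of all windows. Each motif was searched on both strands, and a match is a description of letters, not evidence of binding.

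Before the comparisons, the region labels were set against marker genes. Slc6a3, the dopamine transporter, lay between 9.71 and 12.43 in the vehicle VTA arrays and at no more than 5.93 in vehicle NAC and 7.22 in vehicle PFC. Gpr6, a receptor of striatal projection neurons, lay between 9.73 and 11.19 in vehicle NAC and at no more than 6.03 in vehicle VTA. Tbr1, a cortical projection neuron factor, lay at 9.55 ± 0.25 (SD, n = 8) in vehicle PFC, but also between 6.89 and 9.60 in vehicle NAC against 2.85 to 3.05 in vehicle VTA. Vehicle NAC array 1 was dim at the bright end: its 99th percentile was 11.43, and the highest of the other vehicle NAC arrays was at 11.93. All 36 columns of the table differed from one another.

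Most tested proteasome genes, each read from its brightest probe set, were lower in NAC than in VTA in vehicle mice. Of the 34 tested members 22 differed (limma, adjusted p at most 0.05): 20 were lower in NAC and 2, Psmd13 and Psmd14, were higher. The fit also held the 8 vehicle PFC arrays, which enter its estimate of the spread and so the SE and p-values. Regional differences are widespread on this array. Of all 27022 probe sets tested, 59.0% differed, 28.8% lower and 30.3% higher in NAC. The median member difference was -0.16 against 0.01 for all probe sets tested. By class, 6 of 7 beta ring genes, 5 of 6 ATPases, 3 of 7 alpha ring genes, 3 of 11 non-ATPase cap genes and 3 of 3 chaperones were lower.

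Psmc5, an ATPase of the cap, was lower by the widest margin. The vehicle VTA arrays stood at 11.14, 11.31, 11.18, 10.96 and 11.14, and the vehicle NAC arrays at 10.25, 10.58, 10.51, 10.51 and 10.45. Every NAC array lay below every VTA array. The difference was -0.69 (SE 0.075, adjusted p = 2.12e-07, limma), which is 1.61-fold. Psmd12, a scaffold subunit of the lid of the cap, stood at 10.22, 10.28, 10.32, 9.93 and 10.13 in vehicle VTA and at 9.46, 9.54, 9.59, 9.48 and 9.43 in vehicle NAC. The groups again did not overlap, and the difference was -0.68 (SE 0.067, adjusted p = 5.74e-08, limma).

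Of the other ATPases, Psmc1 and Psmc6 had the largest differences. Psmc1 stood at 10.32, 10.42, 10.40, 10.13 and 10.40 in vehicle VTA and at 9.82, 9.82, 9.86, 9.87 and 9.78 in vehicle NAC, a difference of -0.50 (SE 0.053). Psmc6 stood at 10.36, 10.35, 10.44, 10.17 and 10.32 against 9.73, 9.96, 9.95, 9.84 and 9.72, a difference of -0.49 (SE 0.063). Neither gene's groups overlapped. Psmc4 differed by -0.24 and Psmc2 by -0.22, while Psmc3 had a value of -0.075 and did not pass the test. The limma adjusted p was 1.20e-07 for Psmc1, 1.63e-06 for Psmc6, 0.00631 for Psmc4, 0.00195 for Psmc2 and 0.222 for Psmc3.

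In the core particle, the largest difference was that of Psmb1, a beta subunit without a proteolytic site. It stood at 11.24, 11.12, 11.23, 11.09 and 11.29 in vehicle VTA and at 10.56, 10.61, 10.74, 10.72 and 10.77 in vehicle NAC, a difference of -0.51 (SE 0.054, adjusted p = 1.08e-07, limma). Its other probe sets were dim, at 0.15 and 0.088, and the mean over all of them was -0.090 (adjusted p = 0.157, limma), which did not pass. Psma2, an alpha ring gene, followed at -0.42 (SE 0.059). The 3 catalytic genes had smaller values. Psmb7 had a difference of -0.30 (SE 0.078, adjusted p = 0.00265, limma), Psmb6 of -0.20 (SE 0.053, adjusted p = 0.0033, limma) and Psmb5 of -0.13 (SE 0.056, adjusted p = 0.0473, limma). For Psmb7 and Psmb6 the groups did not overlap, and for Psmb5 they did. Psma3, Psma4 and Psma5 lay within 0.022 of 0 and did not pass the test.

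Psmd4, which encodes a ubiquitin receptor of the cap, stood at 10.56, 10.56, 10.54, 10.40 and 10.59 in vehicle VTA and at 10.05, 10.16, 10.08, 10.13 and 10.03 in vehicle NAC. The difference was -0.44 (SE 0.051, adjusted p = 4.50e-07, limma), with no overlap. Its 3 probe sets did not all run one way: the others were at -0.24 and, for a dim one, at 0.35, and all 3 passed the test, while their mean of -0.11 did not (adjusted p = 0.0867, limma). Psma6 also had probe sets that passed in both directions, at -0.29 for the chosen one and 0.25 for a dim one. Over all 60 tested probe sets of the members, 28 were lower and 8 higher in NAC. With the mean over each gene's probe sets 14 members were lower and 4 higher, with a median of -0.085. Over all genes 6824 were called in that setting, of those at or above the 40th percentile among 18193. Their share and split by direction are not given, so these member counts have no background beside them.

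The genes that were higher in NAC encode lid subunits of the cap. Psmd14, the deubiquitinase that cuts chains from the substrate, stood at 11.08, 11.12, 11.13, 11.01 and 11.08 in vehicle VTA and at 10.97, 11.27, 11.32, 11.27 and 11.31 in vehicle NAC. Its lowest NAC value was that of the dim array 1, the only NAC array below the VTA arrays. The difference was 0.15 (SE 0.058, adjusted p = 0.0364, limma), and 0.21 without that array. Psmd13 stood at 9.17, 9.15, 9.07, 8.98 and 9.11 in vehicle VTA and at 9.27, 9.33, 9.30, 9.36 and 9.19 in vehicle NAC, with no overlap and a difference of 0.19 (SE 0.079, adjusted p = 0.0417, limma). Both calls, and that of Psmb5, lay close to the threshold and were often lost when a single array was left out. Of 18 such fits, Psmd13 was lost in 7, Psmd14 in 7 and Psmb5 in 12. Without vehicle NAC array 1, 17 members were lower and 2 higher. The 2 were then Psmd14 and Psmd3, a lid gene at 0.14 (adjusted p = 0.0467, limma), and Psmd13 did not pass (adjusted p = 0.0557, limma). In the 18 fits with 1 array left out, 14940 to 16444 of all probe sets were called in either direction. With no array left out it was 15953 of 27022.

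**Figure D1:**
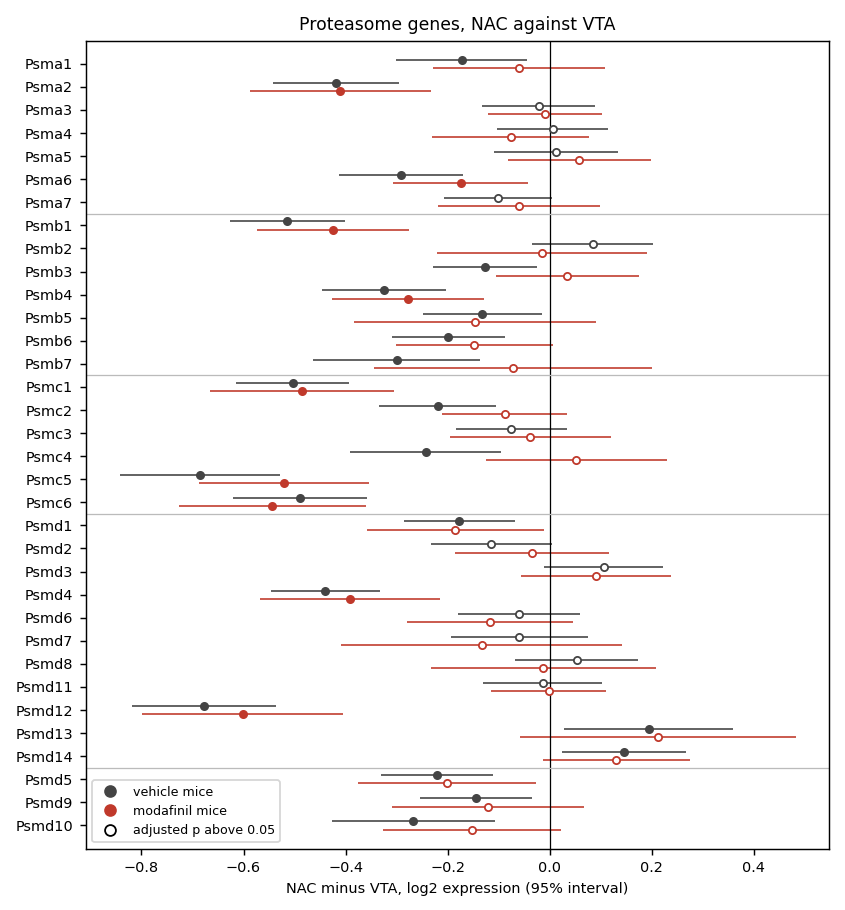
Difference between NAC and VTA (x axis, log2, with the 95% interval of limma) for the 34 tested members, in vehicle mice (grey, n = 5 arrays a region) and modafinil mice (red, n = 5 arrays a region), grouped by class between the horizontal lines. Filled points passed the test at an adjusted p of 0.05. Psmc5, Psmd12, Psmb1, Psmc1, Psmc6, Psmd4 and Psma2 lie well left of 0 in both, and Psmd13 and Psmd14 lie right of 0. Each fit also held the 8 PFC arrays of its treatment, which enter the intervals.

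The same comparison in the modafinil mice used none of the vehicle arrays, and its fit also held the 8 modafinil PFC arrays. There 9 members were lower and none was higher (limma), against 20.6% of all probe sets lower and 26.8% higher, and 47.4% in either direction. The 9 were Psma2, Psma6, Psmb1, Psmb4, Psmc1, Psmc5, Psmc6, Psmd4 and Psmd12. All were among the 20 of the vehicle mice, so the shared genes were 45% of that list and 100% of the shorter one. The longer list already held 20 of the 34 tested members. The like overlap over all probe sets was not counted, so these shares have no background beside them. Of the 20, 18 had a lower value in NAC in the modafinil mice too; Psmb3 and Psmc4 did not. The differences were -0.60 for Psmd12 (SE 0.094), -0.54 for Psmc6 (SE 0.088) and -0.52 for Psmc5 (SE 0.080). Psmd13 at 0.21 (SE 0.13) and Psmd14 at 0.13 (SE 0.069) had values close to those in vehicle mice but did not pass. With the mean over each gene's probe sets 9 members were lower and 4 higher, and Psmb1 turned to 0.054. Over all genes 5552 were called in that setting, of those at or above the 40th percentile among 18193. Here too the share and split by direction are not given, so the member counts have no background beside them. Of 17 members with several tested probe sets, 11 had at least 1 of opposite sign to the chosen one. Over all 59 tested probe sets of the members, 11 were lower and 7 higher in NAC. Psma6 and Psmb1 each had probe sets that passed in both directions, so the absence of higher members holds for the chosen probe sets only. The modafinil NAC arrays were more spread: the mean over the 34 members ran from 9.95 to 10.24 there and from 10.21 to 10.31 in modafinil VTA.

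Markers of several cell types moved with the regions, counted here as genes that passed the test. Of all probe sets 28.8% were lower and 30.3% higher in NAC in vehicle mice. In vehicle mice 11 of 11 oligodendrocyte genes were lower in NAC, with a list mean of 10.94 to 11.35 in VTA and 9.91 to 10.58 in NAC. Of the astrocyte genes 6 of 8 were lower, of the dopamine neuron genes 6 of 8, and of the endothelial genes 4 of 7. The astrocyte and dopamine neuron lists each had 1 gene that was higher. Of the microglial genes 8 of 9 were higher in NAC (8.17 to 8.40 in VTA, 8.80 to 9.04 in NAC), and 10 of 10 striatal neuron genes were higher. Thalamic and midbrain excitatory neuron genes were lower for 5 of 6 (median -2.17), and cortical excitatory neuron genes were higher for 7 of 11 (median 1.37). Their part in the proteasome differences was not tested. In tissue punches, fewer cells of a type and less RNA per cell cannot be told apart.

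Genes that assemble, regulate and feed the proteasome were listed apart from the subunits. Of 25 tested, 12 were lower and 3 higher in NAC in vehicle mice, with a median of -0.16. Of all probe sets 28.8% were lower and 30.3% higher there. In the modafinil mice 5 of the 25 were lower and 3 higher, with a median of -0.044. Of all probe sets 20.6% were lower and 26.8% higher in that comparison. The values that follow are those of vehicle mice. Usp14 at -0.42 (SE 0.062) and Uchl5 at -0.57 (SE 0.10), the deubiquitinases that bind the cap, were lower, as were the assembly factors Pomp at -0.32 and Psmg1 at -0.25. Nfe2l2 at -0.62 (SE 0.12), Nfe2l1 at -0.17 (SE 0.062) and Ngly1 at -0.23 (SE 0.054), the enzyme that processes Nfe2l1, were lower too. Akirin2, which carries proteasomes into the nucleus, was higher at 0.42 (SE 0.061), as was Ecpas, a proteasome adaptor, at 0.16 and the shuttle factor Ubqln4 at 0.26.

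Set beside the upstream windows, 18 of the 20 members lower in NAC had a window and 5 of these held TGACNNNGC, namely Psmb5, Psmb6, Psmc6, Psmd12 and Psmd9. Of the 8 members with a window that did not pass, and of the 2 that were higher, none did. CCAAT was in 8 of the 18, in 2 of the 8 and in 1 of the 2. Psmc5, with the largest difference, held neither. With so few windows these are counts only.

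In PFC the members were mostly higher than in both other regions as deposited, but PFC values lie on a scale of their own. The array medians reached 7.27 in vehicle PFC and lay between 6.77 and 6.89 in vehicle VTA and NAC, below those of all PFC arrays, and PFC may have been normalized apart, so region and handling cannot be told apart and no test was made. As deposited, 34 of 36 members had a higher vehicle mean in PFC than in VTA, with a median of 0.41 over the 34 brighter members. Quantile normalization over all arrays shifted the group medians by 0.21 in vehicle VTA, 0.15 in vehicle NAC and -0.23 in vehicle PFC, and left 10 of 36 higher, with a median of -0.13. Against NAC, 35 of 36 were higher as deposited and 23 of 36 after normalization, with medians of 0.63 and 0.075. The direction against VTA thus depends on the scaling.

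Psmb7 had the lowest PFC value relative to VTA and NAC on both scales. Its deposited mean was 8.90 ± 0.13 (SD, n = 8) in vehicle PFC, 8.94 ± 0.11 (n = 5) in vehicle NAC and 9.24 ± 0.12 (n = 5) in vehicle VTA. Its PFC minus VTA value was -0.34 as deposited and -0.78 after quantile normalization, the lowest of the 34. Psma5 was at the other end against VTA, at 0.92 and 0.35, from 10.61 ± 0.042 in vehicle VTA and 11.52 ± 0.057 in vehicle PFC. Psmb5 lay at 10.36 ± 0.082, 10.22 ± 0.062 and 11.02 ± 0.077 in vehicle VTA, NAC and PFC, and Psmb6 at 10.33 ± 0.054, 10.13 ± 0.091 and 10.65 ± 0.060. For both, NAC was the lowest of the 3 regions as deposited. After quantile normalization NAC was still the lowest for Psmb5 (10.60, 10.49 and 10.69 in VTA, NAC and PFC), while for Psmb6 PFC was (10.58, 10.40 and 10.31).

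**Figure D2:**
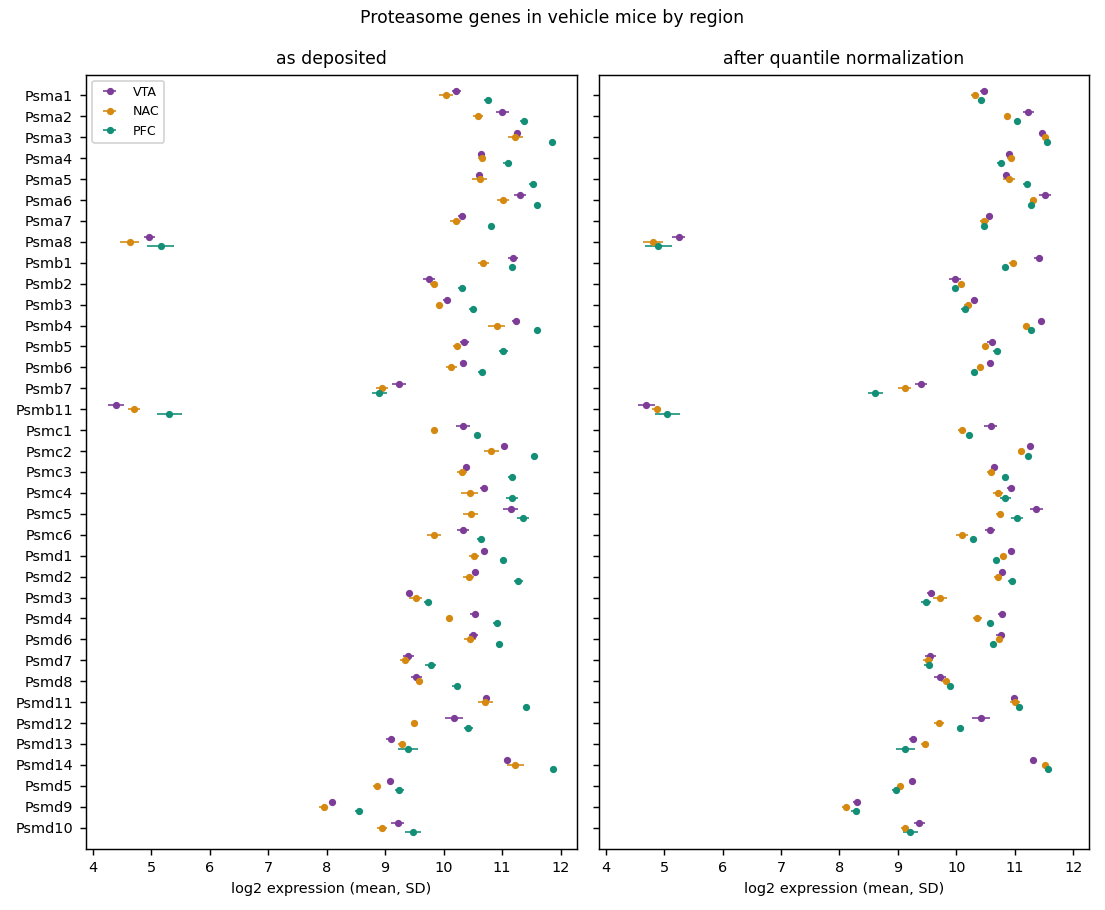
Mean log2 expression (x axis; bars are the SD over arrays) of the 36 members in vehicle mice in VTA (n = 5), NAC (n = 5) and PFC (n = 8), as deposited on the left and after quantile normalization over all arrays on the right. PFC points lie right of the others for most members on the left only; Psma8 and Psmb11 lie near 5 and below.

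The brighter members varied less between arrays of one group than the probe sets above the filter as a whole. Probe sets of like brightness were not set beside them. The median over the 34 brighter members of the SD within groups was 0.102, against 0.144 for all probe sets above the filter. Psma3 (0.060), Psmd11 (0.065) and Psmc2 (0.070) varied least. Psma8 (0.19), Psmb11 (0.18) and Psmb7 (0.18) varied most, the first pair being dim.

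Modafinil left no member past the test in any region. In VTA 0 of 34 passed (limma), against 0.259% of all probe sets, and none had an unadjusted p under 0.05. In NAC 0 of 34 passed against 0% of all probe sets, and in PFC 0 of 34 against 0.0518%, again with no unadjusted p under 0.05. All 34 intervals lay within 0.5 of 0 in each region, with the widest bound at -0.31 for Psmb7 in VTA, 0.42 for Psmc4 in NAC and -0.40 for Psmd13 in PFC. The median member change was -0.017 in VTA, 0.023 in NAC and -0.026 in PFC, beside -0.047, -0.015 and -0.028 for all probe sets tested. Members with a higher value in modafinil mice were 15 of 34 in VTA, 23 in NAC and 7 in PFC, against 36.2%, 43.5% and 37.5% of all probe sets. These signs depend on the probe set chosen. Of 17 members with several tested, 10 in VTA, 10 in NAC and 9 in PFC had at least 1 of opposite sign.

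In VTA the smallest p-values were those of an assembly chaperone and a catalytic gene. Psmd9 stood at 8.19, 8.06, 8.12, 8.03 and 8.07 in vehicle and at 7.98, 8.05, 7.96, 7.94 and 8.00 in modafinil arrays. The groups overlapped, and the value was -0.11 (SE 0.054, adjusted p = 0.269, limma). Psmb7 stood at 9.41, 9.15, 9.21, 9.13 and 9.31 against 9.08, 8.88, 9.22, 9.17 and 9.17, a value of -0.14 (SE 0.080, adjusted p = 0.331, limma). Psmd2, a base scaffold, was at -0.092 and Psmd10, another chaperone gene, at -0.11. On the other side stood Psmd7 at 0.096, Psma4 at 0.065, Psmb5 at 0.067 and Psma3 at 0.052. Psmb6 was at -0.073, Psmd14 at 0.038 and Psmd4 at 0.0033. None of these passed the test.

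Several marker lists leaned one way between the VTA groups, and the list means were not tested. The 11 tested dopamine neuron genes all had lower values in modafinil VTA, and the mean over the 12 listed ran from 8.54 to 10.11 in vehicle and from 7.59 to 8.99 in modafinil arrays. Thalamic and midbrain excitatory neuron genes had higher values for 7 of 8, with a list mean of 8.65 to 9.59 in vehicle and 9.69 to 10.32 in modafinil arrays, without overlap. The 11 oligodendrocyte genes all had lower values, from 10.94 to 11.35 and from 10.93 to 11.03 on average. No gene of these lists passed singly (limma). The mean over the 34 proteasome members was 10.28 ± 0.045 (SD, n = 5) in vehicle and 10.26 ± 0.041 (n = 5) in modafinil VTA. The part of the markers in the member values was not tested.

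In NAC the ATPase gene Psmc4 had the smallest p-value. It stood at 10.21, 10.45, 10.61, 10.42 and 10.52 in vehicle and at 10.45, 10.50, 10.56, 10.85 and 10.83 in modafinil arrays, a value of 0.20 (SE 0.10, adjusted p above 0.99 as for all members, limma). The groups overlapped, with 2 modafinil arrays above the highest vehicle array. Psmb3, a beta ring gene, was at 0.11 (SE 0.065), Psmc2 at 0.099 and Psma1 at 0.098. Lower values were those of Psmb2 at -0.099, Psmd9 at -0.085, Psmd3 at -0.072 and Psmd5 at -0.069. The catalytic genes were at 0.053 (Psmb5), -0.022 (Psmb6) and 0.090 (Psmb7), and Psmd14 and Psmd4 were at 0.024 and 0.052. Psmb5 showed the spread of this group, with modafinil arrays at 9.99, 9.88, 10.61, 10.49 and 10.41 around vehicle arrays at 10.12, 10.23, 10.28, 10.25 and 10.24. Of 10 striatal neuron genes 9 had lower values in the modafinil NAC arrays, and of 11 cortical excitatory neuron genes 10 had higher values, with a median of 0.19. The cortical list mean ran from 7.52 to 9.43 in vehicle and from 7.31 to 9.44 in modafinil NAC. No gene of these lists passed, and their part in the member values was not tested.

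In PFC the lid gene Psmd13 had the smallest p-value. It ran from 9.19 through a median of 9.36 to 9.66 in the vehicle arrays and from 8.77 through 9.34 to 9.41 in the modafinil arrays. The medians were close, and 3 modafinil arrays lay below the lowest vehicle array. The value was -0.20 (SE 0.096, adjusted p = 0.431, limma). Psmd10 was at -0.14 (SE 0.069), Psmc1 at -0.091 and Psmc6 at -0.077, while Psmb3 at 0.061, Psmd3 at 0.042, Psmc2 at 0.034 and Psmd11 at 0.023 had the smallest p-values among higher members. Psmb5, Psmb6 and Psmb7 were at -0.010, -0.036 and -0.067, and Psmd14 and Psmd4 at -0.032 and -0.017. The 7 tested alpha ring genes all had slightly lower values, between -0.087 and -0.0079. Oligodendrocyte genes had higher values in modafinil PFC for 11 of 11 and striatal neuron genes for 9 of 9, with none past the test.

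**Figure D3:**
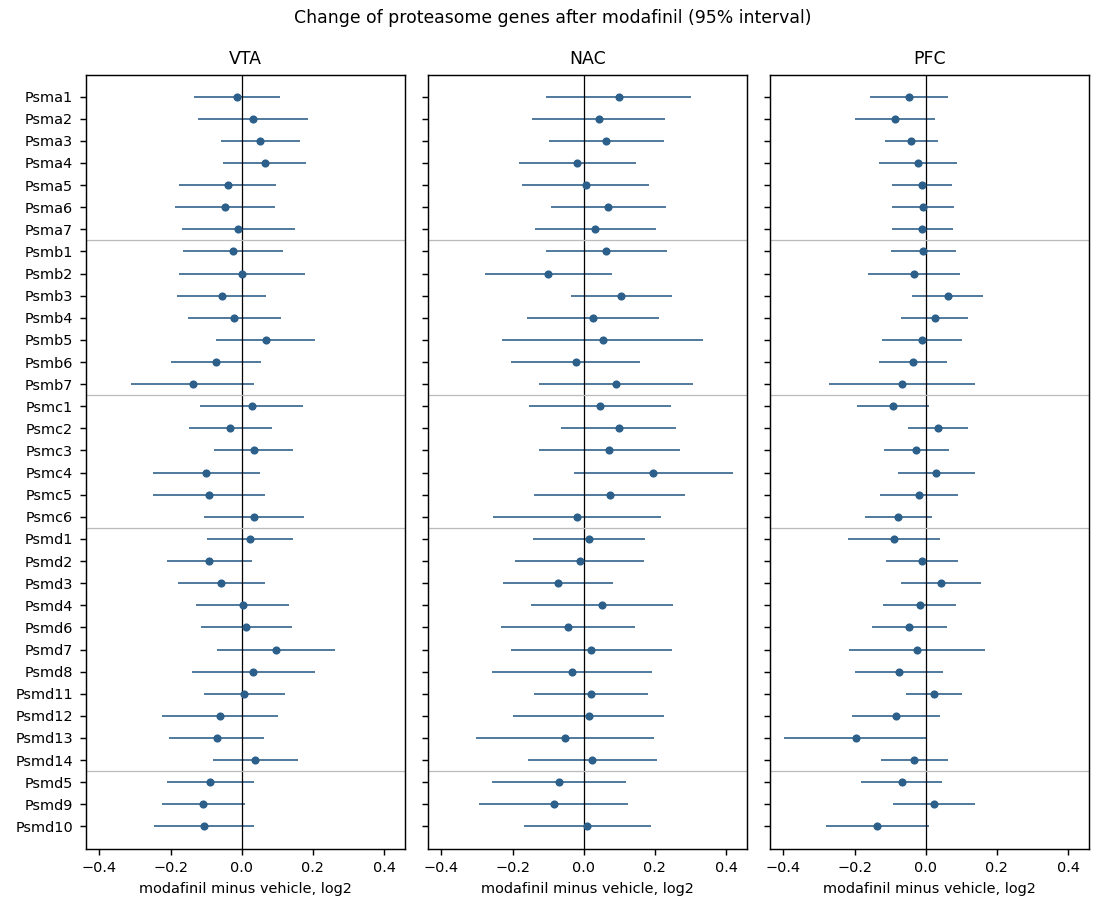
Modafinil minus vehicle (x axis, log2, with the 95% interval of limma) for the 34 tested members in VTA (n = 5 and 5 arrays), NAC (5 and 5) and PFC (8 and 8), grouped by class between the horizontal lines. No interval reaches 0.5 on either side, none passed the test, and Psmc4 in NAC and Psmd13 in PFC lie farthest from 0.

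Across the 3 regions in one fit, 0 of 34 members passed (limma), against 0.840% of all probe sets, and 3 had an unadjusted p under 0.05. These were Psmd13 at -0.12 (SE 0.058, adjusted p = 0.284), Psmd5 at -0.074 (SE 0.035, adjusted p = 0.288) and Psmd10 at -0.087 (SE 0.042, adjusted p = 0.291), all lower. Psmd5 was lower in modafinil arrays by a like value in every region, at -0.088, -0.069 and -0.067 in VTA, NAC and PFC. Psmb6 was at -0.043. Among higher values, the smallest p-values were those of Psmb3 at 0.041, Psmc4 at 0.040, Psmc2 at 0.034 and Psmd11 at 0.018. Psmb5 was at 0.029, Psmb7 at -0.043, Psmd4 at 0.0076 and Psmd14 at 0.0032, and all 34 intervals lay within 0.25 of 0. The median member change was -0.014, beside -0.027 for all probe sets tested.

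The modafinil change of a member did not pass a test of difference between regions. For VTA minus NAC 0 of 34 passed (limma, against 0.274% of all probe sets) and 2 had an unadjusted p under 0.05. Psmc4 had the largest value there, -0.30 (SE 0.11, adjusted p = 0.278), from -0.099 in VTA and 0.20 in NAC, followed by Psmb3 at -0.16 (SE 0.078) and Psmc2 at -0.13 (SE 0.074). For VTA minus PFC 0 of 34 passed against 0.903%, with no unadjusted p under 0.05, and the smallest p-values were those of Psmb3 at -0.12, Psma3 at 0.092 and Psmd9 at -0.13. For NAC minus PFC 0 of 34 passed against 0%, also with none under 0.05, led by Psma3 at 0.10, Psmc4 at 0.17 and Psma1 at 0.15. These contrasts share arrays with one another and with the regional comparisons above. The 25 listed assembly, regulator and ubiquitin genes had no call after modafinil in any region or across regions.

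The 3 catalytic genes each have an inducible counterpart that replaces them in the immunoproteasome, the form made under interferon: Psmb8 for Psmb5, Psmb9 for Psmb6 and Psmb10 for Psmb7. The higher Psmb8 and Psmb9 values of these modafinil arrays were known when the pairs were chosen, so the tests below are not independent evidence of that rise. They ask how the level of each pair stood within an array. The log2 ratio depends on both probes and is compared between groups only; its own level is no measure of subunit amounts. In all, 9 comparisons were made by a two-sided exact permutation test, adjusted over the 9; 5 against 5 arrays cannot give a p under 0.00794.

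Psmb9 over Psmb6 was higher after modafinil in VTA. The ratio stood at -3.39, -3.24, -3.50, -3.41 and -3.60 in vehicle and at -1.91, -2.18, -3.23, -2.17 and -2.24 in modafinil arrays. Each of the 5 modafinil arrays exceeded every vehicle array, array 3 only just. The difference was 1.08 (SE 0.23, exact permutation p = 0.00794, adjusted 0.0179). In PFC the difference was 0.73 (SE 0.19, exact permutation p = 0.00171, adjusted 0.0154), with 6 of 8 modafinil arrays above every vehicle array. In NAC it was 0.58 (SE 0.27, exact permutation p = 0.0952, adjusted 0.143), with 3 of 5 above.

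Psmb8 over Psmb5 differed by 0.83 (SE 0.25, exact permutation p = 0.00777, adjusted 0.0179) in PFC. In VTA the modafinil arrays stood at -1.95, -2.14, -3.81, -2.25 and -2.05 and the vehicle arrays between -3.69 and -3.33. Array 3 was below all vehicle arrays and the other 4 were above them. The difference was 1.09 (SE 0.35, exact permutation p = 0.0476, adjusted 0.0857), and 1.43 (adjusted 0.0286) without modafinil array 3. In NAC it was 0.79 (SE 0.39, exact permutation p = 0.135, adjusted 0.152), with 3 of 5 arrays above the highest vehicle array. With the mean over the Psmb8 probe sets the VTA, NAC and PFC values were 0.60, 0.44 and 0.48.

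Psmb10 over Psmb7 differed by 0.21 (SE 0.050, exact permutation p = 0.00794, adjusted 0.0179) in VTA, where the vehicle arrays stood at 0.12, 0.34, 0.22, 0.17 and 0.33 and the modafinil arrays at 0.45, 0.49, 0.36, 0.49 and 0.43. The groups did not overlap. In the fit Psmb10 was at 0.068 and Psmb7 at -0.14, and neither passed singly. In NAC the difference was 0.26 (SE 0.14, exact permutation p = 0.119, adjusted 0.152) and in PFC 0.091 (SE 0.10, exact permutation p = 0.475, adjusted 0.475). For the other pairs, in VTA Psmb8 was at 1.15 and Psmb9 at 1.01, against 0.067 for Psmb5 and -0.073 for Psmb6. The modafinil change in VTA minus that in NAC was 0.45 (SE 0.30, adjusted p = 0.589, limma) for Psmb9 and 0.31 (SE 0.38, adjusted p = 0.802, limma) for Psmb8.

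**Figure D4:**
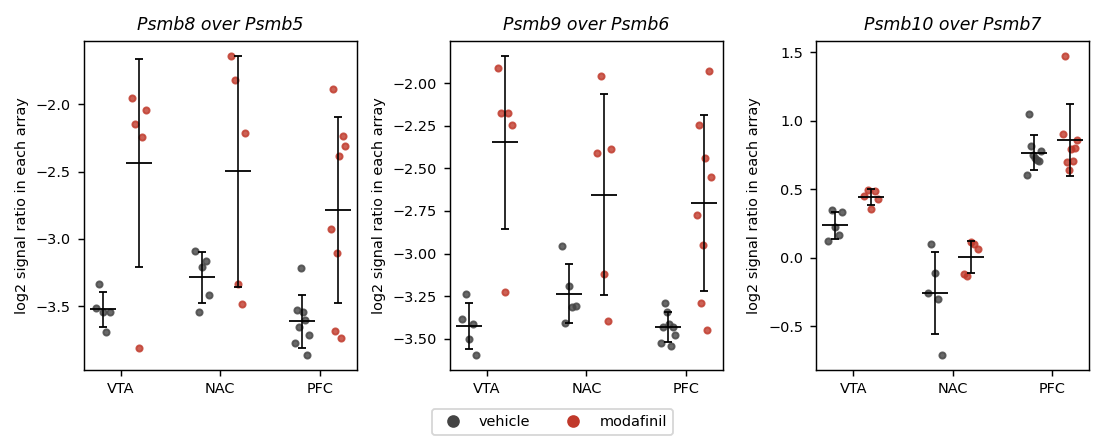
Log2 ratio of the inducible to the constitutive catalytic gene in each array (y axis) by region, for vehicle (grey) and modafinil (red) mice; dashes are means and bars the SD over arrays (n = 5, 5 and 8 a group in VTA, NAC and PFC). Modafinil points lie above all vehicle points in VTA for Psmb9 over Psmb6 and Psmb10 over Psmb7, while modafinil VTA array 3 is the low point of Psmb8 over Psmb5 at -3.81.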

How the data were processed

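Expression was measured on Affymetrix GeneChip mouse arrays. The authors deposited 1 table of log2 expression values, made with RMA per the submitters' processing notes; its version and the arrays normalized together are not given in the sources used here. Of 45101 probe sets 64 controls were left out. Symbols came from the platform annotation, updated by Entrez ID (34945 probe sets had 1 symbol, 932 several and 9160 none). Arrays carry no read depth; their number limits the precision. Treatment was tested within each region on that region's arrays, the regional difference in a fit of all vehicle arrays, and the change across regions in a fit with region as a term, all with limma 3.58.1 in R 4.3.3 on probe sets whose mean lay at or above the 40th percentile, with Benjamini-Hochberg adjustment over all of them and a threshold of 0.05. Pair ratios were tested by exact permutation in scipy 1.17.1. The fits were tested on simulated data. Members, gene lists and tests were chosen with earlier results of these data known. Named were Psmb5, Psmb6, Psmb7, Psmd14, Psmd4, Psma8 and Psmb11, the 4 smallest p-values per direction after modafinil (3 for differences between regions), the 6 largest regional differences per direction, and the 3 largest and 3 smallest spreads; others were named after their values were seen. Alternatives changed the normalization, filter, probe set rule, variance model, array weights, arrays fitted, replicate block and arrays left out.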

Additional observations from a re-analysis of the deposited data

Results flagged for a closer look

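In 240 groups of 5 or 8 arrays (each member, the member mean and each pair ratio in each group), 33 single arrays stood apart from the rest of their group by Dixon's criterion, 13.8% where chance alone gives about 1 in 20. Most were low values, and several fell on the same array, so the flags are not independent.

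Vehicle NAC array 1, the dim one, held 9. Its mean over the 34 members was 9.98 beside 10.10 in the next array. It was the lowest of its group for Psma2 (10.44), Psma3 (11.01), Psma6 (10.83), Psmb4 (10.65), Psmb6 (9.97), Psmc2 (10.60), Psmd6 (10.26) and Psmd14 (10.97). Its values enter the regional comparison, which is given without it in the report.

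Modafinil PFC array 2 held 8. It was the lowest of its group for Psma4 (10.81), Psmb7 (8.24), Psmd1 (10.57), Psmd6 (10.65), Psmd8 (9.84), Psmd12 (10.01) and Psmd14 (11.62), and the highest for the log2 ratio of Psmb10 over Psmb7 (1.47). Vehicle PFC array 2 held 3, the lowest Psmc6 (10.49) and Psmd8 (10.03) and the highest ratio of Psmb10 over Psmb7 (1.05).

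Modafinil VTA array 2 held 5, the lowest Psma5 (10.38), Psma7 (10.05), Psmb2 (9.48) and Psmd8 (9.30) and the highest Psmc6 (10.48). Vehicle VTA array 4 held 3, the lowest Psma2 (10.81), Psmd1 (10.59) and Psmd4 (10.40). Modafinil VTA array 3 was the lowest for Psmb8 over Psmb5 (-3.81) and for Psmb9 over Psmb6 (-3.23). The remaining values were the lowest Psma1 in vehicle VTA array 2 (10.08), the lowest Psmc5 in modafinil VTA array 1 (10.90) and the lowest Psmb7 in modafinil NAC array 2 (8.69).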

How the results depend on the processing

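No member passed the test for modafinil in any region, across regions or between regions under any alternative run, and no leave-one-out fit changed that. What moved was the count of all probe sets called. In VTA it was 262 after quantile normalization, 0 without the filter, 291 with the filter at the 60th percentile, 241 with a trended robust variance, 704 with array weights, 940 with all arrays in 1 fit and 0 to 172 with single arrays left out. In PFC it was 4 with the 60th percentile filter, 0 with the trended variance, 61 with array weights, 36 with all arrays in 1 fit and 0 to 62 with single arrays left out. In NAC leaving out arrays gave 0 to 1. Across regions it was 140 with the stricter filter, 123 with the mean of probe sets per gene, 556 with array weights and 145 to 389 with single arrays left out.

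Members lower or higher in NAC than in VTA in vehicle mice numbered 18 to 23 under the alternatives run, single arrays left out included; the median moved to -0.085 with the mean of probe sets per gene. All probe sets called were 25572 without the filter and 14940 to 16444 with single arrays left out, and 6824 genes were called with that mean. Psmb1 at -0.090 and Psmd4 at -0.11 did not pass with that mean. Psmd13 was lost with all arrays in 1 fit and without vehicle VTA array 3, 4 or 5 or vehicle NAC array 1, 2, 3 or 4. Psmd14 was lost without vehicle VTA array 1, 4 or 5 or vehicle NAC array 2, 3, 4 or 5. Psmb5 was lost after quantile normalization, without the filter, with all arrays in 1 fit, and without vehicle VTA array 1, 3 or 5, vehicle NAC array 1, 2, 4 or 5 or vehicle PFC array 1, 3, 5, 6 or 8. In modafinil mice, a comparison chosen after seeing the data, members called were 14 with array weights and 8 to 10 with single arrays left out. All probe sets called there were 21168 without the filter, 8461 with the stricter one and 11682 to 12892 with single arrays left out. With the mean of probe sets per gene 5552 genes were called. There Psmb1 turned to 0.054 with that mean, and Psmb7 ran from -0.13 to 0.014 with single arrays left out.

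The labels state no pairing, and not every same-numbered pair correlated above 0.1, so the arrays were taken to share only a number. For vehicle VTA and NAC these correlations ran from 0.016 to 0.25, and 4 of 5 arrays matched their own number best, which leaves a pairing unsettled. The replicate block gave 19 members called in vehicle mice (without Psmd14 and Psmb5) and 10 in modafinil mice, and 0, 0 and 122 probe sets for modafinil in VTA, in PFC and across regions.

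Small changes after modafinil that turned sign were, in VTA, Psma3 at -0.031 with the mean of probe sets and Psmd4 at -0.020 with array weights (-0.029 to 0.034 with arrays left out); in NAC, Psmb6 at 0.050 with array weights, Psmd14 at -0.044 after quantile normalization and Psmd4 at -0.066 with the mean of probe sets. With arrays left out, NAC values ran from -0.030 to 0.15 for Psmb5, -0.064 to 0.034 for Psmb6 and -0.040 to 0.054 for Psmd14. In PFC quantile normalization gave Psmb5 at 0.011 and Psmd4 at 0.0082, the mean of probe sets Psmd4 at 0.021, and arrays left out -0.035 to 0.022 for Psmb5, -0.10 to 0.018 for Psmb7 and -0.045 to 0.00095 for Psmd4. Across regions Psmc4 was -0.013 with the mean of probe sets, Psmd14 -0.011 after quantile normalization (-0.014 to 0.018 with arrays left out) and Psmd4 -0.00077 with array weights (-0.0066 to 0.022). None passed. The cause was not tested.

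Psmb8 over Psmb5 in VTA ran from 0.96 to 1.43 with single arrays left out, passing only without modafinil array 3. PFC minus VTA turned from 0.41 to -0.13 and PFC minus NAC from 0.63 to 0.075 after quantile normalization. Without the 50 bases after the start, TTCNNNGAA was in 0 member windows; the other motif counts stayed the same.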
